A study of Danio rerio with 10 samples.

Results

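The comparison described here set wild type zebrafish embryos at 4 h post fertilization (hpf), after the mid-blastula transition, against wild type embryos at 2.5 hpf, before it. It rests on 4 of the 10 arrays of the study, 2 at 4 hpf and 2 at 2.5 hpf, chosen by their labels and not by any measured value. The other 6 arrays belong to a separate experiment at 4.3 hpf on embryos that received a morpholino or a placebo. The embryos compared here were described as wild type, with no injection named for them, and were left to develop until harvest. Samples were taken from whole embryos, and their strain, number and parents are not given here. The labels do not say whether the replicates came from separate clutches, so the p-values measure only the spread between these samples. Total RNA was labelled as biotinylated cRNA and hybridised to the Affymetrix Zebrafish Genome Array, which reports a transcript through 1 or more probe sets.

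The zebrafish egg is loaded with maternal mRNA that drives the first rapid, synchronous cell divisions while the embryo's own genome is nearly silent. Around the mid-blastula transition the cell cycle lengthens, the genome becomes widely transcribed, and part of the maternal mRNA is degraded. The first zygotic genes include transcription factors of the Sox, Krüppel-like and homeobox families, the signals that pattern the germ layers, and the microRNA miR-430, which promotes the decay of many maternal transcripts. The maternal proteins Pou5f3, Nanog and Sox19b are known to open the way for this first transcription.

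Values below are the authors' normalized log2 expression values, on which a difference of 1 is a 2-fold change. A level is relative to the labelled RNA of a sample, not per embryo, and in whole embryos fewer cells of a type and less RNA per cell cannot be told apart. The median of all probe sets was 6.256 and 6.258 on the 4 hpf arrays, against 6.189 and 6.155 on the 2.5 hpf arrays. The arrays correlated at 0.9972 between the 4 hpf replicates and at 0.9976 between the 2.5 hpf replicates, and at 0.9861 to 0.9887 between the times. The replicates of a probe set differed by a median of 0.091 at 4 hpf and 0.097 at 2.5 hpf. As a measure of background, the highest mean among 17 control probe sets with no zebrafish target was 6.33 at 4 hpf and 6.24 at 2.5 hpf. Probe sets whose mean did not exceed it were taken to be at background, and a fold against it is given as a lower bound, "at least N-fold". A log2 difference that involves such a level is the fitted difference of the readings, not a measured size. Among the defining markers, the germ plasm genes ddx4, nanos3, dazl, dnd1 and buc lay between 8.32 and 11.42 at 4 hpf and between 8.72 and 11.71 at 2.5 hpf. Of 6 markers of the outer cell layer 0 were above background at either time, and the same held for 3 markers of the ovarian follicle. Of 8 markers of tissues that form later, 3 were above background at both times, in a range over the 8 of 4.08 to 7.30 at 4 hpf and 3.67 to 6.94 at 2.5 hpf.

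A probe set is said to have risen or fallen where its limma p-value, adjusted by Benjamini-Hochberg across the 15502 probe sets tested, was below 0.05. By this measure 1498 probe sets, 9.66% of those tested, rose, and 1532, or 9.88%, fell, 19.5% in either direction. The changes were mostly small: the median rise was 0.37 and the median fall -0.43, against a median of 0.05 over all probe sets. At least 2-fold changes were fewer and unevenly split, with 127 rises (0.819%) and 44 falls (0.284%). At 4-fold or more there were 41 rises and 2 falls. The split of the smaller calls depended on scaling: 49.4% of calls were rises in the values as deposited, but 24.7% (754 rises and 2302 falls) when each array was centred on its own median. Without 2.5 hpf replicate 2 the counts were 599 rises and 827 falls, while those of at least 2-fold were 123 and 39. The 2 arrays of a time did not overlap those of the other, and were higher at 4 hpf, in 37.7% of probe sets, and were lower in 24.6%.

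The 2 directions differed in where they started. Of the 127 probe sets that rose at least 2-fold, 118 were at background at 2.5 hpf. Of these, 76 stood above background only at 4 hpf, and 42 were at background at both times. Of the 44 that fell at least 2-fold, 27 stayed above background at both times, 15 were above it only at 2.5 hpf, and 2 were at background throughout. Large rises thus mostly started from background, where 7872 of all 15502 probe sets lay at 2.5 hpf. A probe set there has little room to read lower, so falls of that size could hardly be seen from background. Most transcripts that fell at least 2-fold were still measurable at 4 hpf.

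**Figure D1:**
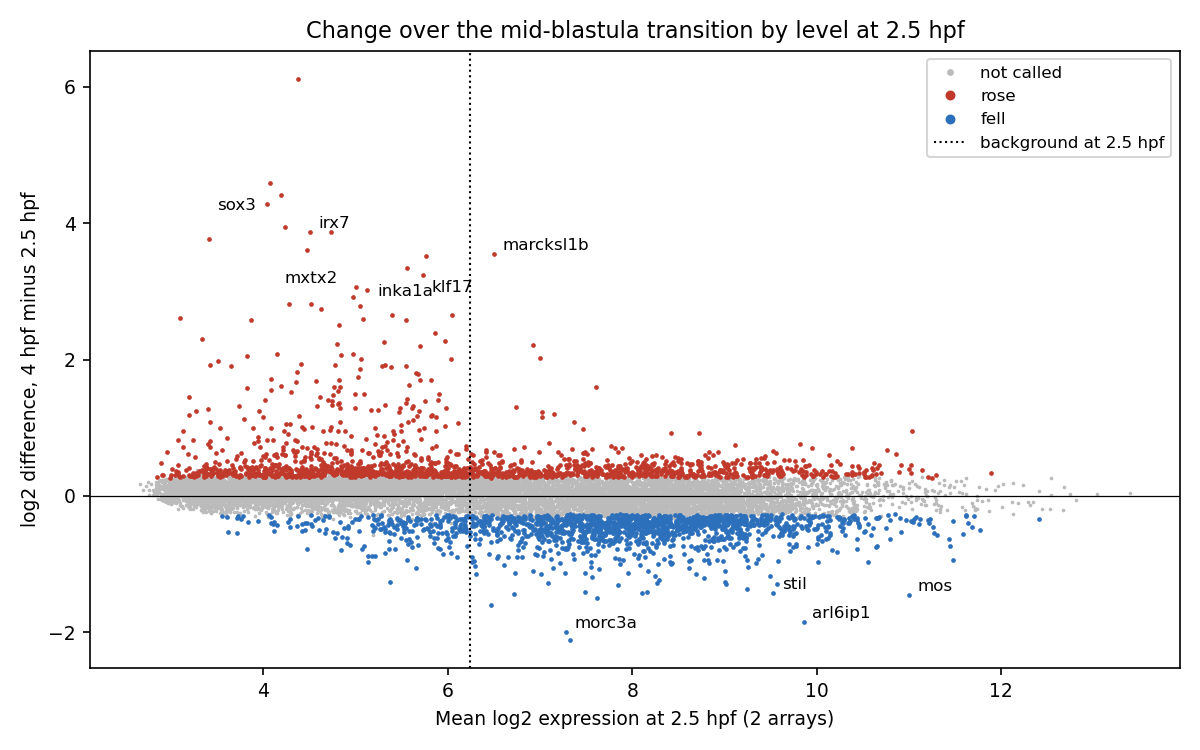
The log2 difference, 4 hpf minus 2.5 hpf (vertical axis), of each of 15502 probe sets against its mean log2 expression at 2.5 hpf (horizontal axis, 2 arrays). Red points rose, blue points fell, grey points were not called, and the dotted line is the background at 2.5 hpf: the 41 rises of 4-fold or more lie almost all to its left, with 38 at background, and most falls to its right.

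Of the 15 genes with the largest fitted rises, several encode transcription factors. Sox3, a SoxB1 factor of early ectoderm and neural tissue, measured 8.196 and 8.436 at 4 hpf, against 3.88 and 4.19 at 2.5 hpf. Its difference was 4.28 ± 0.12 (SE, 2 arrays per time, limma adjusted p = 2.59e-10), a rise of at least 4.22-fold over background. Its other probe sets were at background at both times and rose as well. The Iroquois homeobox gene irx7 measured 8.48 and 8.29 at 4 hpf, against 4.56 and 4.46 at 2.5 hpf, at least 4.42-fold. Klf17, a Krüppel-like factor of the outer layer and blood lineage, read 8.97 on both 4 hpf arrays, against 5.94 and 5.52 at 2.5 hpf, at least 6.63-fold. The largest of the measured bounds among the 15 leading genes was thus that of klf17, although its difference of 3.24 was smaller than that of sox3. For sox3, irx7 and klf17, chosen by the size of their difference, the replicates of a time differed far less than the times did.

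Further transcriptional regulators stood out from background in the same way. Mxtx2, a homeobox gene that specifies the yolk syncytial layer, read 8.23 and 7.89 at 4 hpf, against 5.03 and 4.97 at 2.5 hpf. Her5, a Hairy-related repressor, read 7.88 and 7.90 at 4 hpf, against 5.01 and 4.92 at 2.5 hpf. Vox, a homeobox repressor that restricts the dorsal organiser, read 8.09 and 8.39 at 4 hpf, against 5.85 and 6.08 at 2.5 hpf. Their bounds were at least 3.53-fold for mxtx2, 3.14-fold for her5 and 4.01-fold for vox. Id1, a target of bone morphogenetic protein (BMP) signals that blocks the DNA binding of basic helix-loop-helix proteins, was already above background at 2.5 hpf, at 6.92 and 6.94, and read 9.27 and 9.02 at 4 hpf, a rise of 4.65-fold. The zinc finger gene znf1065 read 7.81 and 7.97 at 4 hpf, against 5.68 and 5.71 at 2.5 hpf, at least 3.14-fold.

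Several of the largest rises were in genes with other roles. Marcksl1b, which encodes an actin-binding protein of the MARCKS family, read 10.15 and 9.96 at 4 hpf, against 6.51 and 6.50 at 2.5 hpf. That was an 11.7-fold rise from just above background (difference 3.55 ± 0.10, SE; adjusted p = 2.59e-10). Inka1a, whose human counterpart inhibits a p21-activated kinase, read 8.201 and 8.070 at 4 hpf, against 5.11 and 5.13 at 2.5 hpf. Lfng, a glycosyltransferase that modifies Notch, read 8.03 and 8.06 at 4 hpf, against 5.68 and 5.10 at 2.5 hpf. Apoeb, an apolipoprotein made in the yolk syncytial layer, read 8.15 and 8.10 at 4 hpf, against 5.39 and 5.70 at 2.5 hpf. The bounds of these 3 genes were at least 3.73-fold for inka1a, 3.50-fold for lfng and 3.70-fold for apoeb. The remaining members of the leading 15 were the mitochondrial carrier gene slc25a55a (at least 1.80-fold), the F-box gene fbxo44.9 (at least 2.12-fold) and zgc:64022 (at least 3.82-fold), each at background at 2.5 hpf. The calls of all 15 held in every alternative fit tried.

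**Figure D2:**
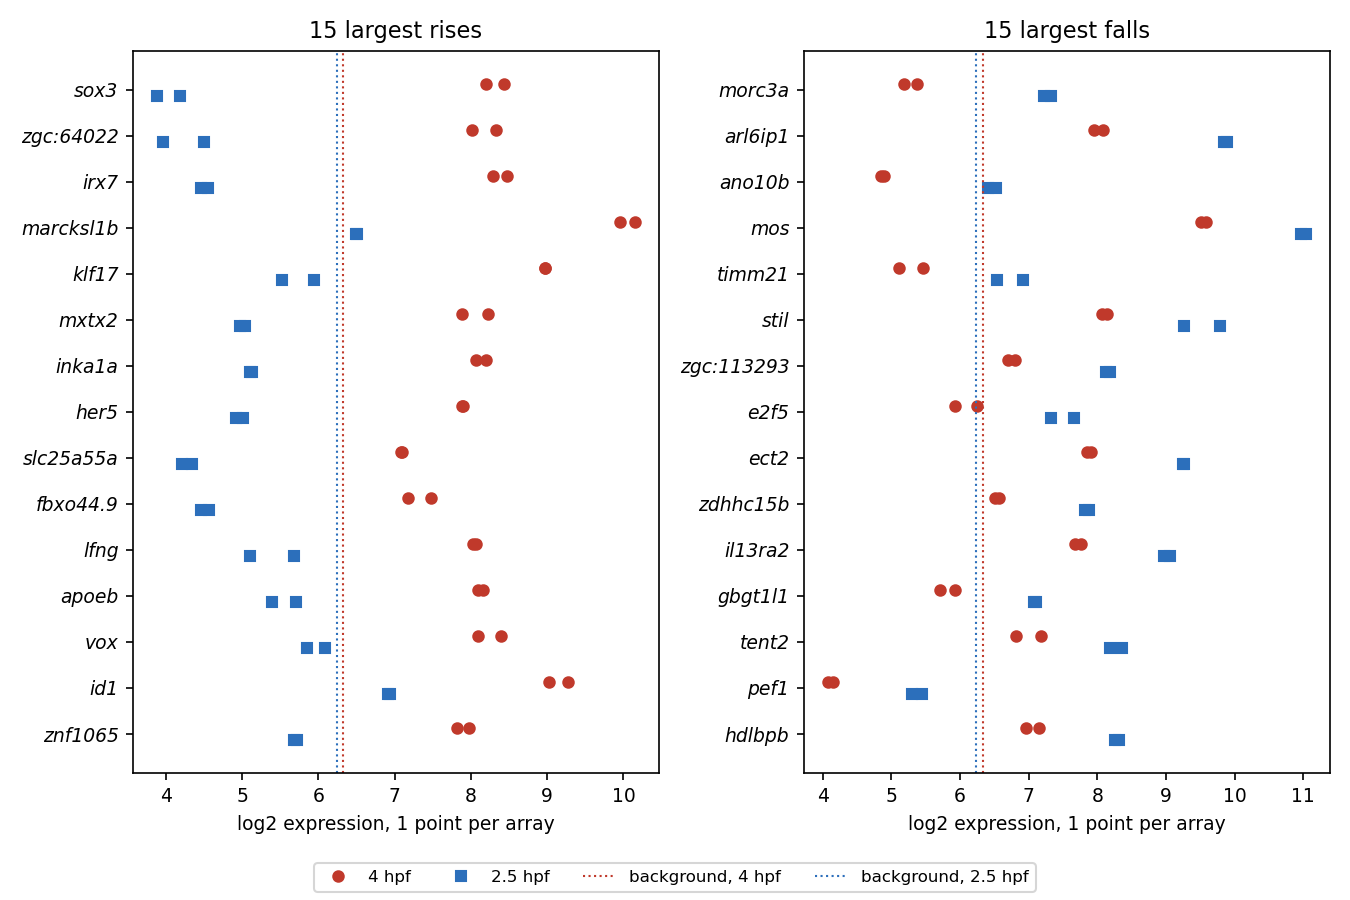
The log2 expression of the 15 genes with the largest rises (left) and of the 15 with the largest falls (right), with 1 point per array: red circles at 4 hpf, blue squares at 2.5 hpf, and dotted lines at the background of each time. The genes were chosen by the size of their change, and in each the 2 times do not overlap. Of the 15 rising genes 13 start left of the 2.5 hpf line. Of the 15 falling genes 9 stay right of the 4 hpf line.

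The probe set with the largest fitted rise had no gene name. Probe set Dr.17269.1.A1_at measured 10.56 and 10.43 at 4 hpf, against 4.59 and 4.17 at 2.5 hpf, a difference of 6.12 ± 0.13 (SE; adjusted p = 6.65e-11) and at least 19.1-fold. The annotation also left unnamed Dr.25767.1.S1_x_at, at least 5.37-fold higher, and Dr.21819.1.A1_at, at least 5.16-fold higher. A further probe set of the first of these, Dr.25767.1.S1_at, was at least 6.28-fold higher. Of the 127 probe sets that rose at least 2-fold, 55 had no gene name, against 10 of the 44 that fell at least 2-fold. Unnamed probe sets made up 4572 of all 15502.

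A smaller set of genes was above background at 2.5 hpf and rose further. Sox19b, the maternal SoxB1 factor, read 9.32 and 9.37 at 4 hpf, against 8.47 and 8.37 at 2.5 hpf, a 1.90-fold rise, and its other probe set rose by 1.59. Gapdh, a glycolytic enzyme often used as a constant control, read 12.001 and 11.962 at 4 hpf, against 11.024 and 11.040 at 2.5 hpf, a 1.93-fold rise (difference 0.95 ± 0.09, SE; adjusted p = 1.66e-05). The actin-sequestering peptide gene tmsb4x read 8.18 and 8.34 at 4 hpf, against 7.04 and 6.99 at 2.5 hpf. The pentose phosphate enzyme gene taldo1 read 8.33 and 8.59 at 4 hpf, against 7.47 and 7.46 at 2.5 hpf. Further rises in this class were those of the malic enzyme gene me3 (1.30), the cyclophilin gene ppiab (0.92), dap1b (0.77) and the methionine adenosyltransferase gene mat2aa (0.74). The 2 times did not overlap in any of these genes, which were chosen as called rises. Over all probe sets 37.7% did not overlap and were higher at 4 hpf.

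The gene lists below hold 1475 different measured genes, with 1 probe set per gene, the brightest over the 4 arrays. Of all 8793 genes taken this way 8.81% rose and 11.9% fell, and their median difference was 0.03. Among the probe sets above background at both times 8.76% rose and 16.2% fell, which is the nearer standard for lists of bright genes. Among those at background at both times 9.20% rose and 2.80% fell, with a median of 0.10, the nearer standard for dim lists. Most genes of the Nodal, BMP, Wnt, Notch, enveloping layer and yolk syncytial layer lists were at background at both times. The lists were written with earlier results of these data known. Their counts are therefore descriptions, to be read against these shares, and not tests. Where leaving out 1 array moved a count of 4 or more by over 1.5 times, the count without it is given, and smaller counts moved by at most 2 unless given.

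Of 68 measured first-wave transcription factors 30 rose and 2 fell, with a median difference of 0.24. Of the 30, 16 rose at least 2-fold, against 0.614% of all genes, and 0 fell by as much, against 0.364%. At 2.5 hpf 12 of the 68 were above background, and at 4 hpf 26 were, while 41 were at background at both times. The list of 61 genes of tissues that form later also had more above background at 4 hpf, 15 against 8. Of those 61, 0 rose at least 2-fold. Besides the leaders, snai2 (1.43), zic2b (1.39), sox11a (1.29) and tbx16 (0.96), regulators of cell movement, neural fate and mesoderm, rose and were named after their values were seen. The brachyury gene tbxta, which defines the axial mesoderm, read 4.20 and 4.16 at 4 hpf, against 3.82 and 3.92 at 2.5 hpf, far below background at both times.

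Signalling genes of the germ layers were described by pathway. Nodal signals induce mesoderm and endoderm and are limited by the secreted Lefty antagonists. Of 35 measured genes of the Nodal and mesendoderm list 11 rose and 0 fell, with a median of 0.23. Of the 35, 20 were at background at both times, a class in which 2.80% of probe sets fell. The antagonist lft2 read 6.52 and 6.46 at 4 hpf, against 5.33 and 4.65 at 2.5 hpf, at least 1.19-fold. The ligand ndr1 read 6.21 and 6.19 at 4 hpf, against 5.56 and 5.53 at 2.5 hpf, a difference of 0.65 that stayed below background. The antagonist lft1 (0.83) and the notochord homeobox gene noto (1.16) also rose below background. Cxcr4a, a chemokine receptor of moving mesendoderm, read 7.46 and 7.36 at 4 hpf, against 5.93 and 5.89 at 2.5 hpf, at least 2.25-fold.

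BMP signals pattern the ventral side of the embryo. Of 38 measured BMP and ventral genes 10 rose and 3 fell, with a median of 0.12, and without 2.5 hpf replicate 2 those counts were 7 and 0. The ligand gene admp, which is expressed at the dorsal side in gastrulae, read 7.50 and 7.52 at 4 hpf, against 5.84 and 5.79 at 2.5 hpf, at least 2.42-fold. The ligand gene bmp2b read 6.80 and 6.88 at 4 hpf, against 5.65 and 5.68 at 2.5 hpf, at least 1.52-fold. Vox and id1, described above, were the largest rises of the list.

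Wnt signals set up the dorsal organiser from maternal determinants. Of 36 measured Wnt and organiser genes 5 rose and 3 fell. Leaving out 4 hpf replicate 1 gave 9 rises, leaving out 2.5 hpf replicate 1 or 4 hpf replicate 2 gave 8, and the falls were 1 without 2.5 hpf replicate 2. The Wnt receptor gene fzd7a rose below background (0.96), as did the brighter probe set of fzd8a (0.99), whose other probe set rose to just above background at 4 hpf, at least 1.08-fold. Sybu, a maternal gene needed for dorsal determination, read 9.54 and 9.50 at 4 hpf, against 10.001 and 10.254 at 2.5 hpf, a fall of 1.53-fold that lost its call with all 10 arrays in one fit.

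Fibroblast growth factor (FGF) signals act through a kinase cascade on early response genes. Of 32 measured FGF genes 6 rose and 2 fell, or 4 and 1 without 2.5 hpf replicate 2. The immediate early gene ier5 read 6.88 and 7.23 at 4 hpf, against 4.996 and 5.115 at 2.5 hpf, at least 1.77-fold. Dusp6, a phosphatase that limits the cascade, read 6.39 and 6.90 at 4 hpf, against 5.63 and 5.50 at 2.5 hpf, and lost its call when all 10 arrays shared one estimate of spread; its other probe set, at background, was not called. Of 26 Notch and Hairy-related genes 5 rose and 0 fell, and 2 rose without 2.5 hpf replicate 2. The 2 large ones were her5 and lfng, and the others, her8a, notch1b and dlc, rose by 0.41 or less at background. Her8a and notch1b lost their calls without 2.5 hpf replicate 2, with quantile normalization and with all 10 arrays in one fit. Notch1b also lost its call without 4 hpf replicate 2.

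Genes of the first separate tissues were mostly at background. The enveloping layer is the outer epithelium of the blastula. Of its 52 listed genes that were measured 41 were at background at both times, 7 rose and 1 fell. Klf17 was the largest rise. The keratin gene krt4 read 5.88 and 5.90 at 4 hpf, against 5.58 and 5.34 at 2.5 hpf, and krt18a.1 read 4.86 and 4.65 at 4 hpf, against 4.24 and 4.04 at 2.5 hpf. The rise of krt18a.1 lost its call with all 10 arrays in one fit. Of 29 genes of the yolk syncytial layer 3 rose and 0 fell: mxtx2, apoeb and the cathepsin gene ctsla, whose 0.34 lost its call in 4 of the alternative fits. That list gave 2 rises without 2.5 hpf replicate 2 and 5 without 2.5 hpf replicate 1 or 4 hpf replicate 2. Of 58 adhesion and actin genes 11 rose and 1 fell, led by marcksl1b, inka1a, tmsb4x and the actin gene actb1 (11.46 and 11.50 at 4 hpf, against 10.87 and 10.86 at 2.5 hpf).

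Dim probe sets read slightly higher at 4 hpf as a body. The 7639 probe sets at background at both times had a median difference of 0.10, and 703 of them (9.20%) rose while 214 (2.80%) fell. Of 61 genes of differentiated tissues that form later, 59 read higher at 4 hpf, against 75.2% of the probe sets at background at both times. Above background were 8 of the 61 at 2.5 hpf and 15 at 4 hpf. Of the 61, 7 rose and 0 fell, with a median of 0.16. Those rises, such as gfap (4.08 and 4.08 at 4 hpf, against 3.64 and 3.71 at 2.5 hpf), were of 0.41 or less, and leaving out 1 array gave 3 (without 2.5 hpf replicate 2) to 13 (without 2.5 hpf replicate 1), with 11 without 4 hpf replicate 1. Quantile normalization of the 4 arrays brought the median of probe sets at background to -0.001 and that of the late tissue genes to 0.05. Of 20 genes of ovarian somatic cells 2 rose, and 0 did without 2.5 hpf replicate 2 or without 4 hpf replicate 2. The part of this drift in the small rises at background was not tested.

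**Figure D3:**
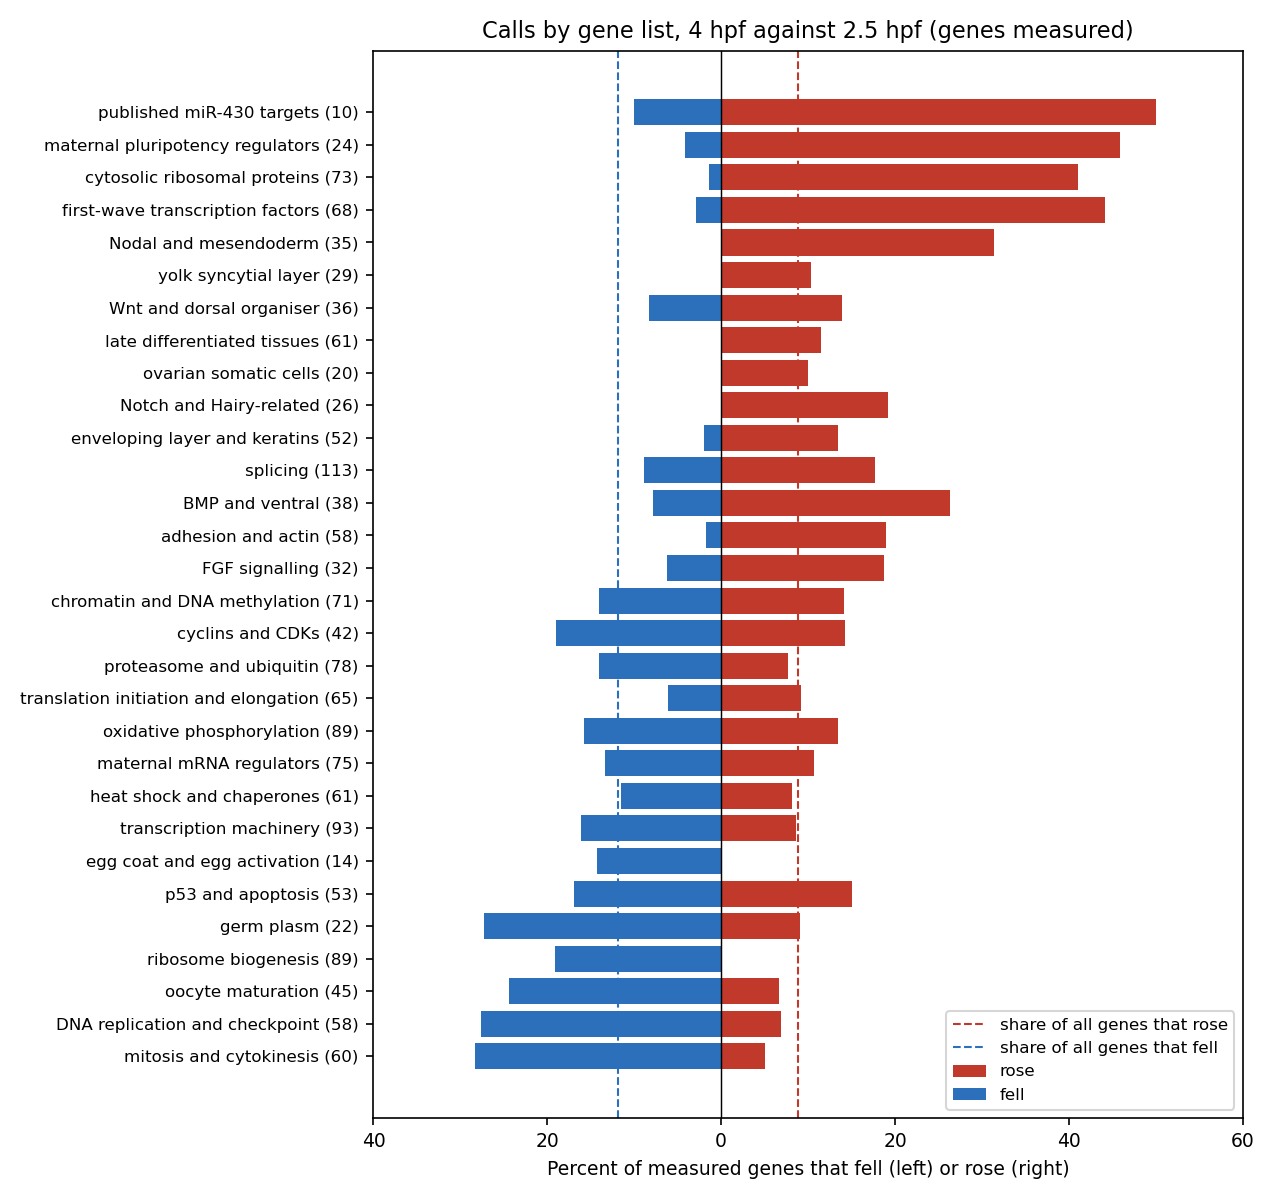
The percent of measured genes of each of 30 lists that rose (red, to the right) or fell (blue, to the left) at 4 hpf against 2.5 hpf, with the number measured in parentheses and the lists in order of their median difference. The dashed lines mark the shares of all 8793 genes, 8.81% risen and 11.9% fallen (16.2% fallen among probe sets above background at both times): first-wave transcription factors and cytosolic ribosomal proteins lie furthest to the right of them among the lists of over 60 genes, and mitosis and DNA replication reach furthest left.

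The factors known to prepare the genome for transcription were bright before it, and apart from sox19b their differences did not pass the test. Pou5f3, the fish counterpart of the pluripotency factor Oct4, read 11.01 and 10.90 at 4 hpf, against 10.88 and 11.11 at 2.5 hpf, with overlapping groups (difference -0.04, adjusted p = 0.797). Nanog read 11.00 and 10.86 at 4 hpf, against 10.71 and 10.79 at 2.5 hpf (0.18, adjusted p = 0.185). The zinc finger gene sall4 is not among those factors but is listed with the pluripotency regulators. Its brightest probe set read 8.34 and 8.61 at 4 hpf, against 8.51 and 8.46 at 2.5 hpf (-0.01, adjusted p = 0.945). Its other probe set was just above background, at 6.71 and 6.84 at 4 hpf, against 6.56 and 6.52 at 2.5 hpf. That difference of 0.24 was not called (adjusted p = 0.0884). Of the 24 measured pluripotency regulators, 11 rose and 1 fell, with a median of 0.27. The rises were those of the SoxB1 genes sox3, sox19a and sox19b and the Krüppel-like genes klf17, klf2a and klf2b. The Myc genes mych and mycn, foxd3, and the acetyl-lysine readers brd2a and brd2b made up the rest. Brd2a and brd2b lost their calls without 2.5 hpf replicate 2 and with all 10 arrays in one fit. Those lost calls are of the brightest probe set of each gene. Further probe sets of brd2a rose by 0.49, 1.08 and 1.41, the last at background at both times. Klf2a read 6.83 and 6.97 at 4 hpf, against 4.72 and 4.95 at 2.5 hpf, at least 1.58-fold. The Myc gene mycb was the fall, at 6.49 and 6.52 at 4 hpf, against 7.15 and 7.15 at 2.5 hpf. Many of these genes are also in the first-wave list.

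Of 73 measured cytosolic ribosomal protein genes 30 rose, 1 fell and the rest were not called, with a median difference of 0.24. At 4 hpf 73 were above background, and 68 read higher at 4 hpf, against 46.5% of the probe sets above background at both times. Rps2 read 11.06 and 11.12 at 4 hpf, against 10.47 and 10.30 at 2.5 hpf, a 1.63-fold rise. Rps6 (0.64), rplp2b (0.56) and rps3 (0.53) followed, and rpl22l1, a paralog of rpl22, fell by 0.52. The median difference stayed positive under each scaling, from 0.16 with median centring to 0.24, whereas the probe sets above background at both times had a median of -0.02. The count of calls was less stable: 8 rose without 2.5 hpf replicate 2, 17 without 4 hpf replicate 2, 20 with median centring and 7 with all 10 arrays in one fit. Ribosome biogenesis genes act in the nucleolus, where the subunits are built. Of 89 measured, 0 rose and 17 fell, against 10 falls without 2.5 hpf replicate 2 and 11 without 4 hpf replicate 1. With all 10 arrays in one fit 5 fell. The 17 falls were 19.1% of the list, near the 16.2% of probe sets above background at both times that fell. Of those probe sets 8.76% rose. Rrs1 read 8.77 and 8.72 at 4 hpf, against 9.35 and 9.39 at 2.5 hpf, and the helicase gene ddx49 read 6.72 and 6.73 at 4 hpf, against 7.27 and 7.45 at 2.5 hpf.

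Splicing genes changed in both directions, with more rises than falls. Of the list 17.7% rose and 8.85% fell, against 8.76% and 16.2% of the probe sets above background at both times. At 4 hpf 78 of the 113 measured read higher, with a median difference of 0.12, or 0.03 with median centring. Of 113 measured, 20 rose and 10 fell, or 12 and 5 without 2.5 hpf replicate 2. The hnRNP gene hnrnpa0b read 10.69 and 10.61 at 4 hpf, against 9.99 and 9.91 at 2.5 hpf, and the SR protein gene srsf5a read 8.49 and 8.54 at 4 hpf, against 7.77 and 7.85 at 2.5 hpf. Lsm6, a component of the U6 snRNP, read 8.16 and 8.29 at 4 hpf, against 8.83 and 8.94 at 2.5 hpf, a fall that lost its call with all 10 arrays in one fit.

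The maternal stock at 2.5 hpf, taken here as the probe sets above background, was broad, and a minority of it fell. A level above background does not by itself show a maternal transcript. Of the 61 measured genes of tissues that form later, 8 were above it too. At 2.5 hpf 7630 probe sets, 49.2% of those tested, were above background, and 7354 of them (96.4%) were still above it at 4 hpf. Of the 7630, 1318 (17.3%) fell, 644 (8.44%) rose and 5668 (74.3%) were not called. At least 2-fold falls were 42, or 0.550%. Falls were called in 15.6% of probe sets between background and 8 at 2.5 hpf. They were called in 18.6% of those between 8 and 10, and in 21.9% of the 453 between 10 and 12. Rises were called in 8.69%, 7.77% and 11.9% of the same groups, in that order. Falls of at least 2-fold did not grow with the level, at 21 of 3669, 20 of 3486 and 1 of 453. Of the 22 at 12 or above, 1 fell and 0 rose.

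The brightest genes at 2.5 hpf that were not called were the mitochondrial gene COX1, the cathepsin gene ctss2.1, the ubiquitin gene ubb, the claudin gene cldnd, the ferritin genes fthl27 and fth1a, the acid phosphatase gene acp5a, ctsba, the oocyte linker histone gene h1m and the lysosomal membrane gene lamp2. H1m, the maternal form of histone H1, read 12.42 and 12.38 at 4 hpf, against 12.26 and 12.22 at 2.5 hpf (difference 0.16, adjusted p = 0.206). COX1 read 13.46 and 13.43 at 4 hpf, against 13.36 and 13.44 at 2.5 hpf. Differences of these 10 genes lay between -0.21 and 0.16.

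The largest falls were fewer and smaller than the rises. Among the 15 leading genes were stil and ect2, of cell division, and mos, of the oocyte, beside many with other roles. Arl6ip1, which encodes a membrane-shaping protein of the endoplasmic reticulum, fell most among the genes above background at both times. It read 7.95 and 8.08 at 4 hpf, against 9.84 and 9.89 at 2.5 hpf, a 3.61-fold fall (difference -1.85 ± 0.09, SE; adjusted p = 5.55e-08). Mos, the kinase that holds the mature egg in meiotic arrest, read 9.58 and 9.51 at 4 hpf, against 11.04 and 10.97 at 2.5 hpf, a 2.74-fold fall. Stil, a centriole assembly gene, read 8.14 and 8.06 at 4 hpf, against 9.27 and 9.79 at 2.5 hpf. Ect2, a gene needed for cytokinesis, read 7.91 and 7.85 at 4 hpf, against 9.26 and 9.24 at 2.5 hpf. The falls of stil and ect2 were 2.69-fold and 2.58-fold. The 4 hpf levels of arl6ip1, mos, stil and ect2 remained well above background, so their signals were lower but not lost. What lowered these signals was not tested.

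RNA regulators were also among the 15 largest falls. Tent2, the cytoplasmic poly(A) polymerase that lengthens tails of stored mRNA, read 7.17 and 6.82 at 4 hpf, against 8.19 and 8.35 at 2.5 hpf, a 2.42-fold fall. Hdlbpb, of the vigilin family of RNA-binding proteins, read 7.15 and 6.96 at 4 hpf, against 8.26 and 8.32 at 2.5 hpf.

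Of 276 probe sets above background only at 2.5 hpf, 128 (46.4%) fell, 15 of them at least 2-fold. The change itself helps to define that class. The genes below are those of the 15 largest falls that reached background. The chromatin ATPase gene morc3a read 5.18 and 5.37 at 4 hpf, against 7.33 and 7.23 at 2.5 hpf, at least 1.93-fold (adjusted p = 4.94e-08). E2f5, a transcription factor of the cell cycle, read 6.25 and 5.92 at 4 hpf, against 7.32 and 7.66 at 2.5 hpf, at least 2.24-fold, while its other probe set differed by -0.28 and was not called (adjusted p = 0.0596). Timm21, of the mitochondrial import machinery, read 5.11 and 5.45 at 4 hpf, against 6.54 and 6.91 at 2.5 hpf, at least 1.32-fold. The anoctamin gene ano10b (at least 1.101-fold) and the glycosyltransferase gene gbgt1l1 (at least 1.70-fold) also reached background. The other members of the 15 were zgc:113293 (-1.41), the palmitoyltransferase gene zdhhc15b (-1.31), the decoy receptor gene il13ra2 (-1.30) and pef1 (-1.26), the last at background at both times. The calls of these 15 genes held in every alternative fit tried that tested them.

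Among genes at 10 or above at 2.5 hpf, mos fell most and the rest fell less than 2-fold. The next were si:dkey-90l23.1 (-0.97), retsatl (-0.83), si:dkeyp-46h3.2 (-0.77) and chac1, a glutathione-degrading enzyme gene (-0.76), whose other probe set was at background. Si:ch211-145c1.1 (-0.73), si:dkey-19b23.8 (-0.73) and rasef2 (-0.70) completed the 8 largest, and the last 2 lost their calls when all 10 arrays were fitted together.

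Of the oocyte maturation list 24.4% fell and 6.67% rose, against 16.2% and 8.76% of the probe sets above background at both times. The list's median level at 2.5 hpf was 9.84. Of all probe sets between 8 and 10 then 18.6% fell, and 21.9% of those between 10 and 12. Of 45 measured genes of oocyte maturation 11 fell and 3 rose, with 7 falls when either 2.5 hpf array was left out, 18 with median centring and 4 with all 10 arrays in one fit. Besides mos, cdk1, the kinase of entry into M phase, read 8.60 and 8.54 at 4 hpf, against 9.15 and 9.31 at 2.5 hpf. Org, an oogenesis-related gene, read 11.26 and 11.27 at 4 hpf, against 11.80 and 11.74 at 2.5 hpf, and lost its call with all 10 arrays. Of 14 egg coat and egg activation genes 0 rose and 2 (14.3%) fell, fmn2b (-0.43) and zp3c (-0.29, limma adjusted p = 0.0499). Leaving out 2.5 hpf replicate 2 left 0 of those falls, and each other array left 1. A second probe set of fmn2b, above background, was not called (-0.09). The other zona pellucida genes above background were not called and differed by -0.27 (zp3a.1) to 0.18 (zp2.6).

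Germ plasm carries the maternal RNAs that set aside the future germ cells. Of 22 measured germ plasm genes 6 fell and 2 rose. That was 27.3% and 9.09%, against 16.2% and 8.76% of the probe sets above background at both times. With all 10 arrays in one fit 3 fell and 1 rose. Dazl, an RNA-binding protein gene of germ cells, fell most, with 8.30 and 8.35 at 4 hpf, against 9.41 and 9.58 at 2.5 hpf, a 2.25-fold fall. Buc, the organiser of germ plasm, read 11.45 and 11.39 at 4 hpf, against 11.71 and 11.71 at 2.5 hpf (-0.29), and dnd1, which shields germ plasm mRNAs from miR-430, fell by 0.41. Ddx4 (0.11) and nanos3 (-0.08) were not called. Of the rises, the chemokine receptor gene cxcr4b, which later guides the migrating germ cells, stood out, with 7.65 and 7.26 at 4 hpf, against 5.43 and 5.67 at 2.5 hpf, at least 2.32-fold. Tdrd6a, a Tudor gene of germ granules, rose by 0.48, a call lost with all 10 arrays.

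With all 4 arrays, 27.6% of the listed genes of DNA replication and 28.3% of those of mitosis fell. Among probe sets above background at both times 16.2% did. Of 58 measured replication and checkpoint genes 16 fell and 4 rose, and the falls were 8 without 2.5 hpf replicate 2 and 9 without 2.5 hpf replicate 1 or 4 hpf replicate 1. The rises were 1 without 2.5 hpf replicate 2 and 2 without 4 hpf replicate 2, and with all 10 arrays in one fit 4 fell and 2 rose. Cdc45, a subunit of the replicative helicase, read 8.36 and 8.51 at 4 hpf, against 9.38 and 9.36 at 2.5 hpf, a 1.91-fold fall. Ticrr (-0.75), which loads Cdc45, and the topoisomerase gene top1a (-0.59, with 4 of its 6 probe sets not called) fell with it, while the thymidylate synthase gene tyms rose by 0.59. Of 60 mitosis and cytokinesis genes 17 fell and 3 rose, with a median of -0.13 that stayed negative under each scaling, and with 11 falls without 2.5 hpf replicate 1, 28 with median centring and 8 with all 10 arrays. After stil and ect2, the spindle checkpoint gene bub3 read 8.46 and 8.39 at 4 hpf, against 9.20 and 9.06 at 2.5 hpf. The kinetochore gene knl1 read 8.11 and 8.24 at 4 hpf, against 8.84 and 8.83 at 2.5 hpf.

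Of 42 cyclin, CDK and E2F genes 8 fell and 6 rose, or 4 and 3 without 2.5 hpf replicate 2. The rises were led by genes at background at 2.5 hpf that act in the G1 phase, which the earliest cycles lack. The cyclin gene ccnd1 read 6.74 and 6.72 at 4 hpf, against 5.62 and 5.86 at 2.5 hpf, at least 1.41-fold. The CDK inhibitor gene cdkn1ca read 6.82 and 6.50 at 4 hpf, against 5.64 and 5.74 at 2.5 hpf, at least 1.34-fold. The falls, besides cdk1 and e2f5, included e2f8 (-0.59) and e2f3 (-0.51), named after their values were seen.

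**Figure D4:**
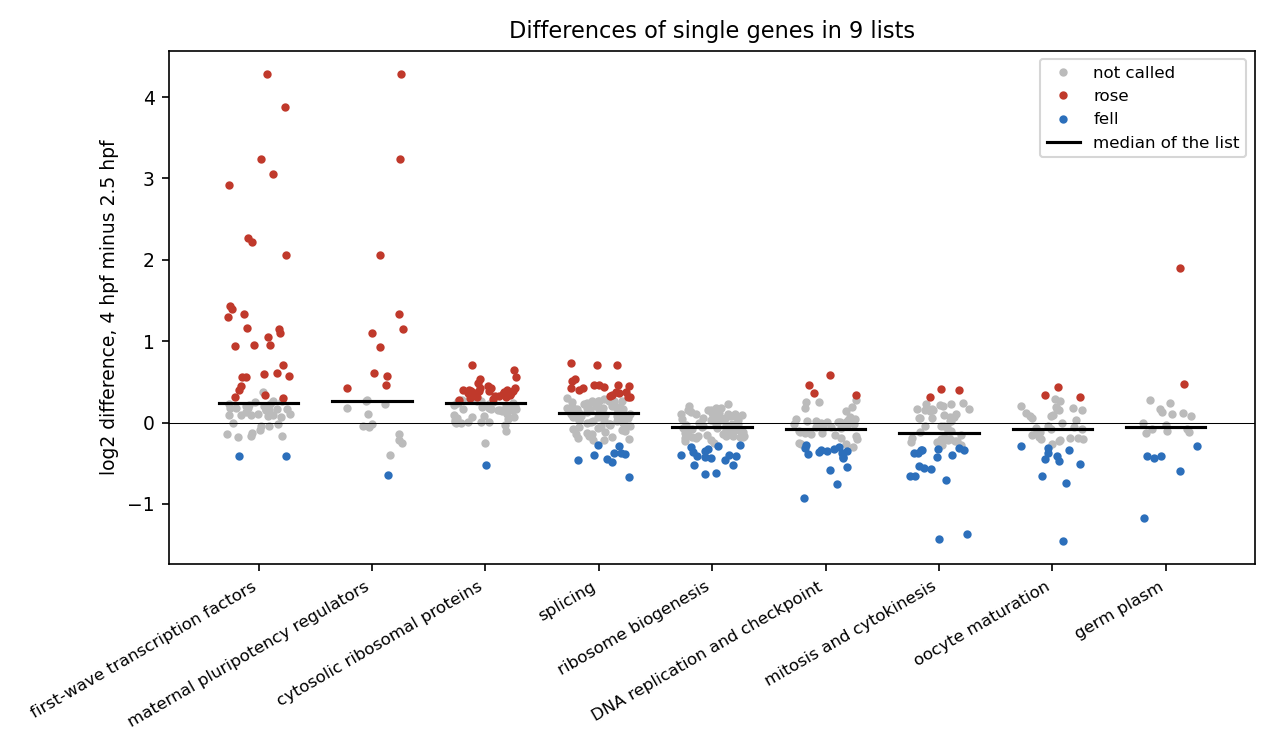
The log2 difference, 4 hpf minus 2.5 hpf, of each measured gene in 9 of the lists, with 1 point per gene (red rose, blue fell, grey not called) and a black bar at the list's median. A long upper tail reaching 4.28 marks the first-wave and pluripotency lists, 68 of the 73 ribosomal protein genes lie above 0, around a median of 0.24, and the mitosis list has its median at -0.13.

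Regulators of maternal mRNA changed in both directions, at shares near those of all genes. Of the list 13.3% fell and 10.7% rose, against 11.9% and 8.81% of all genes. Among probe sets above background at both times 16.2% fell and 8.76% rose. Of 75 measured genes of deadenylation, decapping, storage and translation control 10 fell and 8 rose, or 4 and 2 without 2.5 hpf replicate 2, and the rises were also 2 without 4 hpf replicate 2 and 4 without 4 hpf replicate 1. After tent2 and dazl, the largest falls were those of the decapping factor gene dcp1a (-0.54) and of zfp36l2 (-0.44), which binds AU-rich elements. Dcp1a lost its call with all 10 arrays in one fit, and zfp36l2 did so there and without either 2.5 hpf replicate 2 or 4 hpf replicate 2.

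Of the 10 measured genes listed as published targets of miR-430, 5 rose and 1 fell in each fit that left out an array, except for 6 rises without 4 hpf replicate 2. The genes that rose were themselves at background at 2.5 hpf: cxcr4a, lft2, lft1 and ndr1, described above, and the chemokine receptor gene ackr3b, at 5.85 and 5.80 at 4 hpf, against 4.28 and 4.31 at 2.5 hpf. Dazl was the fall. The maternal targets tdrd7a (9.02 and 8.97 at 4 hpf, against 9.11 and 9.10 at 2.5 hpf) and nanos3 were not called, nor were cd82b and the chemokine gene cxcl12a, with differences of 0.22 and 0.25.

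The remaining lists changed in both directions at shares nearer to those of all genes. Of 71 chromatin genes 10 rose and 10 fell, led by gadd45ba (6.54 and 6.53 at 4 hpf, against 5.60 and 5.39 at 2.5 hpf), a stress gene also tied to DNA demethylation. The rises were 4 without 2.5 hpf replicate 2, 5 without 4 hpf replicate 1 and 6 without 4 hpf replicate 2, and the falls 6 without 2.5 hpf replicate 2. Of 93 genes of the transcription machinery 15 fell and 8 rose, with 3 rises when either replicate 2 was left out, 5 when either replicate 1 was, and 9 falls without 2.5 hpf replicate 2. Tbpl2, the TATA-binding protein variant of the oocyte, read 8.13 and 8.09 at 4 hpf, against 8.56 and 8.74 at 2.5 hpf, a fall that lost its call with all 10 arrays, while larp7, a subunit of the 7SK complex that restrains elongation, rose by 0.48. Translation factor genes, 65 measured, gave 6 rises and 4 falls, with 2 rises when any of the 4 arrays was left out and 1 fall without 2.5 hpf replicate 2 and 2 without 4 hpf replicate 1. The stress kinase gene eif2ak3 fell by 0.58 on its brightest probe set, a call lost with all 10 arrays, while its 2 other probe sets were not called (0.06 and -0.03).

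Oxidative phosphorylation and mitochondrial transport genes numbered 89, of which 14 fell and 12 rose. The rises were 3 without 2.5 hpf replicate 2 and 6 without 4 hpf replicate 2. The falls were 8 when either replicate 2 was left out and 9 when either replicate 1 was. The import receptor gene tomm20b (0.73) and the ATP synthase gene atp5mc3b (0.67) rose most, and timm21 fell to background. Of 78 proteasome and ubiquitin genes 11 fell and 6 rose, with 6 falls and 1 rise without 2.5 hpf replicate 2 and 3 rises without 4 hpf replicate 2. Uba3, of the neddylation enzyme, read 9.07 and 9.07 at 4 hpf, against 9.78 and 9.78 at 2.5 hpf.

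Stress genes included some clear rises from background. Of 61 heat shock and chaperone genes 7 fell and 5 rose. Those counts were 3 and 1 without 2.5 hpf replicate 2, 6 and 2 without 2.5 hpf replicate 1, 4 and 3 without 4 hpf replicate 1, and 6 and 3 without 4 hpf replicate 2. The small heat shock gene hspb1 read 7.06 and 6.80 at 4 hpf, against 5.75 and 5.49 at 2.5 hpf, at least 1.61-fold, and the mitochondrial chaperonin gene hspe1 fell by 0.79, a call lost with all 10 arrays. Of 53 p53 and apoptosis genes 9 fell and 8 rose. The rises were 4 when either replicate 2 was left out. Gadd45bb, a stress-induced gene of the Gadd45 family, read 7.33 and 7.15 at 4 hpf, against 5.15 and 5.50 at 2.5 hpf, at least 2.00-fold. The proapoptotic gene bida read 7.25 and 7.33 at 4 hpf, against 8.03 and 7.92 at 2.5 hpf.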

How the data were processed

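Expression was measured once per array as log2 values, 1 for each probe set. Per the submitters' processing notes, the authors computed these log2 values with affy and RMA, a method that corrects background, normalizes arrays to each other and summarises the probes of a set. Their versions are not given here. They were used as deposited. Of 15617 probe sets, 115 control probe sets were left out. Array annotation gave 1 gene for 10795 probe sets, several for 135 and none for 4572. RefSeq (assembly GRCz12tu) matched 10711 and was used for names only.

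The 4 arrays were fitted with limma 3.58.1 in R 4.3.3 (lmFit and eBayes, two-sided, no term but the group). In simulated data 200 of 15502 probe sets were changed by a log2 of 1 or 2. The fit recovered 100% of them, with 20 false calls. Smaller changes, which make up most of the calls here, were not simulated. Figures used matplotlib 3.10.9 in Python 3.11.15. Arrays give no counts, so their number, 2 per time, limits the precision. Same-numbered arrays were not fitted as pairs in the main fit, and their deviations from the mean of their time correlated at -0.024. With 2 arrays per time, the deviations of a time are mirror images, so this value cannot show whether same-numbered arrays share an origin.

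Genes were chosen by rule, and not all of those chosen are printed here. The rule took the 15 largest rises and 15 largest falls, the 10 largest rises from above background and the 8 largest falls from 10 or above. It also took the 4 largest called members of each of 30 lists (or, with fewer than 2 called, its 2 brightest). Pluripotency and egg coat genes above background, the 10 brightest genes not called and the cell type markers completed it. In the counts below, named genes are all those chosen by the rule apart from its marker part, printed or not. Other genes named were chosen after their values were seen. The rule, the lists and the comparison were chosen with earlier results of these data known. Alternatives covered the spread model, 3 scalings, a filter on dim probe sets, all 10 arrays in one fit, the replicate block, each array left out and the choice of probe set.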

Additional observations from a re-analysis of the deposited data

How the results depend on the processing

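No call was reversed in any alternative fit. Against 1498 rises and 1532 falls, the fit with the replicate number as a block gave 1626 and 1615, with 127 and 44 of at least 2-fold, and changed no call of a named gene. Counts moved by over 1.5 times with median centring (754 rises, 2302 falls, and 73 falls of at least 2-fold) and with all 10 arrays sharing one spread (326 rises, 408 falls). That fit shares its spread with the 6 arrays of the other experiment. Leaving out 1 array gave 599 to 1455 rises and 827 to 1358 falls, and 123 to 133 rises and 39 to 64 falls of at least 2-fold; the lone array of a time is then assumed to vary like the other time. Of 136 named genes that were called, 38 lost the call with all 10 arrays, 14 without 2.5 hpf replicate 2, 8 without 4 hpf replicate 2, 8 with quantile normalization, 4 with median centring, 3 without 4 hpf replicate 1, 2 without 2.5 hpf replicate 1, and 0 with trend and robust settings, with Bacillus control scaling or, of 116 tested, with only probe sets above background.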

Other observations

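Some genes have probe sets that were called in opposite directions. Of 1539 genes with several probe sets, 18 had at least 1 probe set that rose and 1 that fell, and 97 had all probe sets called the same way. The oocyte claudin gene cldng is an example: its brightest probe set read 12.11 and 12.03 at 4 hpf, against 12.40 and 12.42 at 2.5 hpf, and fell by 0.34, while its 3 other probe sets rose by 2.01, 1.58 and 1.22. The probe set of cldng with the rise of 2.01 read 7.90 and 8.18 at 4 hpf, against 5.86 and 6.20 at 2.5 hpf, at least 3.49-fold. That with the rise of 1.58 was at background at both times, and that with 1.22 rose at least 1.38-fold. Kif20a, a kinesin of cytokinesis, read 11.02 and 11.02 at 4 hpf, against 11.56 and 11.61 at 2.5 hpf on 1 probe set (a fall of 0.56), and 9.16 and 9.16 at 4 hpf, against 8.82 and 8.65 at 2.5 hpf on the other (a rise of 0.43). The activin receptor gene acvr2ba had 1 probe set that rose by 0.51, 1 that fell by 0.38 and 1 that was not called. The positions of the probes within these genes were not analysed here. These genes were chosen after their values were seen.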
